A study of Mus musculus with 32 samples.

Results

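The 35 genes described here carry the unfolded protein response of the endoplasmic reticulum (ER) and the chaperones, oxidoreductases, degradation factors and stress regulators that belong to it. They were chosen by name, with earlier results of these data known. A gene's value came from the array probes whose RefSeq identifier belongs to it, and the brightest probe stood for the gene where there were several. All 35 were measured, out of 23109 genes tested, and each was well above background on all 32 arrays except Sec61b, which was on 31 and lacked a value on 1. They fall into 9 core chaperones and cochaperones, 5 protein disulfide isomerases and oxidases, 2 lectin chaperones, 6 sensors and transcription factors, 7 factors of ER-associated degradation, 2 translocon subunits and 4 targets of the transcription factor ATF4.

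Livers came from 32 mice, all C57BL/6 males of wild-type genotype and housed singly, and the RNA of each was hybridised to a 1-colour array of its own. Steady mice (NS) lived in 12 h of light and 12 h of dark. Jet-lagged mice (CJ) were put through chronic jet lag that began at 4 weeks of age: they changed rooms, and the lights of the rooms came on 8 h apart. Tissue was collected at ZT2, ZT10 or ZT18, where ZT is the hour after lights-on as labelled, from mice of 12 or 30 weeks, which gives 12 groups. There were 3 mice in every ZT10 and ZT18 group and 2 in every ZT2 group. The labels do not say how long after the last room change a jet-lagged mouse was sampled. Levels are log2 of the background-corrected intensity relative to the 75th percentile of the same array. They can be compared between mice for 1 gene but not between genes. In whole liver, fewer cells of a type and less RNA per cell cannot be told apart.

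Proteins that are secreted or set in membranes enter the ER through the translocon and are folded there by chaperones such as BiP (Hspa5) and GRP94 (Hsp90b1), while disulfide isomerases join their cysteines. When unfolded proteins build up, BiP is drawn away from the sensors IRE1 (Ern1), PERK (Eif2ak3) and ATF6. IRE1 splices Xbp1 mRNA and ATF6 is cut to an active factor, and both raise chaperones and degradation genes, whereas PERK slows translation and raises ATF4, which drives Ddit3, Trib3, Asns and Chac1. Hepatocytes secrete most plasma proteins and are rich in ER, and mice eat mainly in the dark.

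The promoters of many of these genes carry the ER stress response element (ERSE), the DNA word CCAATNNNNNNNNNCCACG, which binds NF-Y at its CCAAT end and ATF6 or XBP1 at its CCACG end. The RefSeq promoter table of build GRCm38.p6 gave a window, from 250 bases before the transcription start to 50 after it, for 30 of the 35 genes. Both strands were searched. An exact ERSE lay in the windows of 10 of the 30 genes (33.3%), against 39 of 32851 windows of all genes (0.119%). The 11 sites are shown because their genes include Creld2, which had the largest range over the day in steady mice, and Hspa5, while the windows of Sdf2l1, Trib3 and Chac1, whose values also moved widely, held no exact ERSE. Each is printed 5′ to 3′ on the strand that carries it, with CCAAT and CCACG in capitals.
Hspa5 (chr2:34772025-34772043, plus strand): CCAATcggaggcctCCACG
Hsp90b1 (chr10:86705638-86705656, minus strand): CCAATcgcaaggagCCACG
Hsp90b1 (chr10:86705533-86705551, plus strand): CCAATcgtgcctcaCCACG
Dnajc3 (chr14:118937827-118937845, plus strand): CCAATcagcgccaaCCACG
Creld2 (chr15:88819520-88819538, minus strand): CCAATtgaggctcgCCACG
Pdia6 (chr12:17266491-17266509, plus strand): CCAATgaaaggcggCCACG
Ero1b (chr13:12565682-12565700, minus strand): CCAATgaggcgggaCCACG
Calr (chr8:84847075-84847093, plus strand): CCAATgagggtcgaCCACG
Canx (chr11:50325800-50325818, minus strand): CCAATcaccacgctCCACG
Syvn1 (chr19:6046532-6046550, plus strand): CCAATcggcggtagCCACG
Derl3 (chr10:75893242-75893260, minus strand): CCAATggggaagtcCCACG
The compact form ERSE-II, ATTGGNCCACG, whose first letters are CCAAT read on the other strand, lay in 2 of the 30 windows (6.67%, against 0.0365% of all windows). Its sites lie in genes that had no ERSE, and both are shown, with the fixed letters in capitals.
Dnajb11 (chr16:22857852-22857862, plus strand): ATTGGcCCACG
Herpud1 (chr8:94386377-94386387, plus strand): ATTGGgCCACG
The element of ATF4 targets, TGATGNAA, lay in the windows of Herpud1, Trib3, Asns and Chac1 (13.3% of the 30, against 3.97% of all windows), and TGACGTGG, a word bound by XBP1 and ATF6, in 0 of the 30 (0.676% of all windows). A match describes the letters and is not evidence of binding.

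The 250 bases before the start of 3 genes show how these words sit in their promoters: Hspa5, the most used marker of the response; Creld2, which had the largest range over the day among the 35 genes in steady mice; and Herpud1, which was higher in jet-lagged mice at 12 weeks and carries both an ERSE-II and an ATF4 element. Matched words are in capitals, as read on the gene's strand.
Hspa5 (chr2:34771840-34772089, plus strand): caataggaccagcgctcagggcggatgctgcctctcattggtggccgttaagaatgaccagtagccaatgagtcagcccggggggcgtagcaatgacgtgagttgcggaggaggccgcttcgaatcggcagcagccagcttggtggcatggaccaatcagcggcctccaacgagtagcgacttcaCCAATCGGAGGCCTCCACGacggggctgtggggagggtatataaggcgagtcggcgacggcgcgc
Creld2 (chr15:88819396-88819645, plus strand): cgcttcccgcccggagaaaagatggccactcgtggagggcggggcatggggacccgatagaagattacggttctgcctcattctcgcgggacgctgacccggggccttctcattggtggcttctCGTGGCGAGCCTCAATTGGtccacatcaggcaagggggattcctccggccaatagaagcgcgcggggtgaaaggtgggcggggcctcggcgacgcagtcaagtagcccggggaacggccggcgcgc
Herpud1 (chr8:94386179-94386428, plus strand): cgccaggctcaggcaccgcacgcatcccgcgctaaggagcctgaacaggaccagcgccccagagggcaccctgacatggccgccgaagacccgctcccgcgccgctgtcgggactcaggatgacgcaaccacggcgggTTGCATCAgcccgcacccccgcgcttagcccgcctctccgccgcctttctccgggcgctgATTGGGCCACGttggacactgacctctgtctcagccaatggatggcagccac
Of the 12 genes with an ERSE or ERSE-II, 10 were called for time of day in steady mice of 12 weeks (median range 0.79), and of the 18 matched genes without one, 9 were called (median range 0.48). At 30 weeks these counts were 6 of 12 and 5 of 18, with median ranges of 0.73 and 0.78. Genes with the element therefore had the larger median range at 12 weeks and the slightly smaller one at 30 weeks. Over all genes, 17.5% were called at 12 weeks and 11.2% at 30 weeks. The counts by element are descriptions and were not tested.

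Hepatocyte markers were high on every array (mean level 8.82 to 9.55 over 10 genes), so the label of liver holds. Markers of other tissues varied. Digestive enzymes of pancreatic acinar cells (9 of 17 listed genes passed the filter) had a mean level from -2.72 to 4.41, and lay more than 1 log2 unit above the median array on 12 arrays. Group means of that level ranged from -2.51 in jet-lagged mice at ZT2 and 30 weeks to 2.24 at ZT10 and 12 weeks, and it was higher in jet-lagged than in steady mice at ZT10 at both ages. Skeletal muscle markers (11 of 12 passed) ranged from -5.03 to 3.64, and in steady mice their group means were highest at ZT18 (1.07 at 12 weeks, 1.5 at 30 weeks). At ZT10 the muscle level was higher in jet-lagged than in steady mice, 0.34 against -3.28 at 12 weeks and 0.014 against -3.58 at 30 weeks. At ZT18 it was lower at 12 weeks (-2.12 against 1.07) and 1.88 against 1.5 at 30 weeks, and at ZT2 it was -2.95 against -3.40 and -4.75 against -2.40. Acinar cells are rich in ER chaperones; the part of either tissue in the results below was not tested, and counts without the 12 acinar-rich arrays are given beside them. Between 43.4% and 58.1% of probes were well above background on each array, and 0 spots were saturated.

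**Figure D1:**
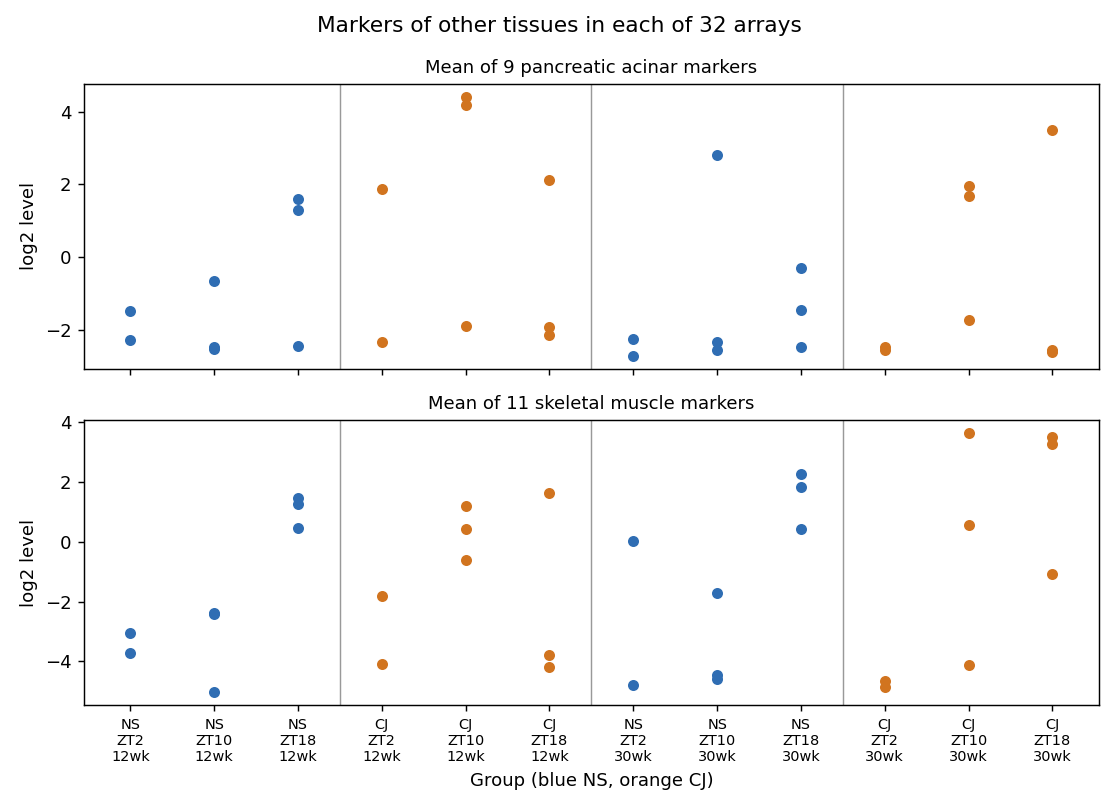
Mean log2 level of 9 pancreatic acinar markers (top) and 11 skeletal muscle markers (bottom) on each of 32 arrays (points), by group (x axis; blue steady NS, orange jet-lagged CJ). Most groups mix arrays of low and high acinar level, from -2.72 to 4.41, and the muscle level of steady mice was highest at ZT18.

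Most of the 35 genes changed with time of day in steady mice of 12 weeks. Of the 35 genes, 22 changed over the 3 times, against a background of 17.5% of all genes tested, and 20 of the 22 were lowest at ZT10, late in the light phase. Of these 20, 19 were highest at ZT18, in the dark, and Ero1b was highest at ZT2; Herpud1 was lowest at ZT2 and Trib3 at ZT18. Of all genes called in that comparison, 40.3% were lowest at ZT10. At 30 weeks, 13 of the 35 changed (background 11.2%), 12 of them with the trough at ZT10 and the peak at ZT2. Among all genes called there, 38.7% were lowest at ZT10. Under jet lag, 8 of the 35 changed at 12 weeks (background 5.66%) and 3 at 30 weeks (background 3.71%). Of the 8, 6 were highest at ZT18 and lowest at ZT2, and 0 were lowest at ZT10. The 3 at 30 weeks, Dnajb11, Sdf2l1 and Syvn1, were all highest at ZT2 and lowest at ZT10. Among all genes called in jet-lagged mice of 12 weeks, 37.1% were lowest at ZT2 and 19.6% at ZT10. At 30 weeks 10.4% were lowest at ZT10. The range, meaning the highest minus the lowest fitted mean of the 3 times, was larger in steady than in jet-lagged mice for 25 of 35 genes at 12 weeks and 23 of 35 at 30 weeks (59% and 55.3% of all genes). Its median over the 35 was 0.60 in steady and 0.41 in jet-lagged mice at 12 weeks, and 0.76 and 0.44 at 30 weeks, while over all genes it was 0.34 and 0.29, then 0.31 and 0.27. Calls rest on limma's F test with Benjamini-Hochberg adjusted p under 0.05 over all genes.

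Without the 12 acinar-rich arrays, which leaves 20 mice and single mice in 4 groups, the counts in steady mice were 9 and 7, and in jet-lagged mice 2 and 0. Calls over all genes fell in each of these comparisons as well. The mean acinar level of steady mice was -1.88 at ZT2, -1.88 at ZT10 and 0.16 at ZT18 at 12 weeks. At 30 weeks it was -2.48, -0.70 and -1.41, and its part in the daily course was not tested. In jet-lagged mice leaving out mouse 2 of ZT2 gave 3 calls at 12 weeks, and leaving out mouse 2 of ZT2 gave 0 at 30 weeks. The count at 30 weeks was 8 without mouse 3 of steady ZT10. The 9 at 12 weeks were Hspa5, Hyou1, Dnajb11, Creld2, Manf, Pdia4, Ero1b, Edem1 and Herpud1. A test of whether the daily course differed between schedules called 2 of the 35 genes at 12 weeks (background 1.93%) and 1 at 30 weeks (background 1.87%). For the other genes, a call in steady and not in jet-lagged mice is therefore not a difference that passed this test.

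**Figure D2:**
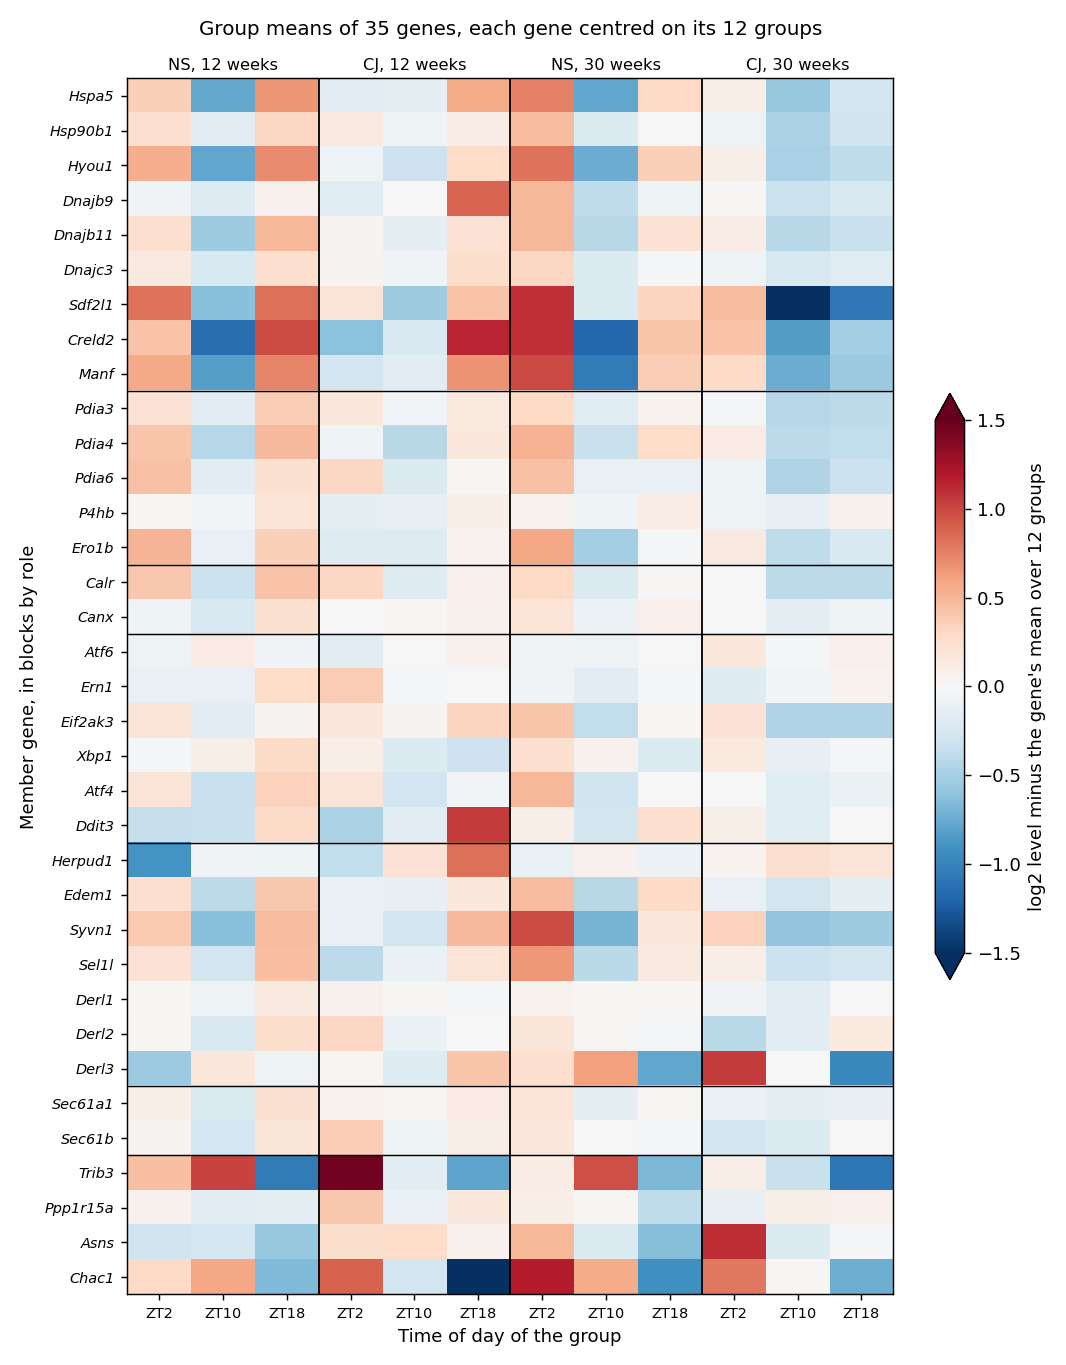
Mean log2 level of the 35 genes (rows, in blocks by role) in the 12 groups (columns), each gene centred on its mean over the 12 groups; red is higher, blue lower, and colours end at 1.5. In steady mice of both ages most chaperones are blue at ZT10, and Trib3 and Chac1 have their lowest values at ZT18.

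Most core chaperones and cochaperones changed over the day in steady mice. In this group of 9 genes, 8 changed with time of day in steady mice of 12 weeks (background 17.5%) and 6 at 30 weeks (background 11.2%). Under jet lag 3 changed at 12 weeks (background 5.66%) and 2 at 30 weeks (background 3.71%). The median range of the 9 was 1.45 (12 weeks) and 1.22 (30 weeks) under the steady schedule, and 0.69 at both ages under jet lag.

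Creld2 encodes an ER protein induced by stress that helps disulfide exchange. Its level in steady mice of 12 weeks was 5.48 and 5.47 at ZT2, 4.24, 3.73 and 3.79 at ZT10, and 5.79, 6.14 and 6.13 at ZT18. At 30 weeks it was 5.52 and 6.78 at ZT2, 3.73, 3.61 and 4.27 at ZT10, and 5.29, 5.44 and 5.67 at ZT18. Every ZT10 value lay below every ZT2 and ZT18 value at both ages, with ranges of 2.32, adjusted p = 8.05e-05, and 2.16, adjusted p = 0.000454. In jet-lagged mice of 12 weeks it was 4.46 and 4.41 at ZT2, 4.71, 4.97 and 4.78 at ZT10, and 6.25, 5.64 and 6.69 at ZT18, where ZT2 was the lowest time and all ZT18 values lay above the rest (range 1.74, adjusted p = 0.00518). In jet-lagged mice of 30 weeks it was 4.71 and 6.24 at ZT2, 4.18, 4.21 and 4.23 at ZT10, and 4.30, 4.37 and 4.93 at ZT18, and a single ZT2 mouse stood far above the others (range 1.42, adjusted p = 0.0575).

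Manf encodes a secreted ER-resident survival factor that binds BiP. Its level in steady mice was 4.12 and 4.23 at ZT2, 3.23, 2.44 and 2.68 at ZT10, and 4.33, 4.38 and 4.33 at ZT18 at 12 weeks, and 4.26 and 4.93 at ZT2, 2.35, 2.11 and 3.21 at ZT10, and 4.02, 3.84 and 4.07 at ZT18 at 30 weeks. Here too all ZT10 values lay below those of both other times, and the ranges were 1.61, adjusted p = 0.000269, and 2.00, adjusted p = 0.000111. In jet-lagged mice the range was 0.86, adjusted p = 0.0832 at 12 weeks, and 1.03, adjusted p = 0.0925 at 30 weeks, neither of which passed the threshold. Hspa5, which encodes BiP, had a range of 1.45, adjusted p = 1.61e-05, in steady mice of 12 weeks, with means of 7.59 ± 0.02 (SD, n = 2) at ZT2, 6.47 ± 0.26 (SD, n = 3) at ZT10 and 7.90 ± 0.03 (SD, n = 3) at ZT18. Hyou1, a large cochaperone that exchanges nucleotide on BiP, changed by 1.55, adjusted p = 6.17e-05. In jet-lagged mice of 12 weeks Hspa5 still changed, with a range of 0.69, adjusted p = 0.0319, but was lowest at ZT2; 27 of 32 fits that left out 1 mouse kept this call.

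Dnajb11 (ERdj3), a BiP cochaperone that is also secreted, was 1 of the 2 genes whose daily course differed between schedules at 12 weeks. The steady mice read 4.16 and 4.17 at ZT2, 3.44, 3.49 and 3.20 at ZT10, and 4.35, 4.49 and 4.40 at ZT18. The jet-lagged mice read 3.93 and 3.99 at ZT2, 3.59, 3.98 and 3.80 at ZT10, and 4.13, 3.97 and 4.30 at ZT18. Jet-lagged mice lay wholly below steady mice at ZT2 and ZT18 and wholly above them at ZT10. The difference between schedules moved by 0.72, adjusted p = 0.0318, over the 3 times, and was highest at ZT10 and lowest at ZT18. That call was kept in 24 of 32 fits that left out 1 mouse, and was lost without the acinar-rich arrays (0.50).

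Dnajb9 (ERdj4), which targets misfolded proteins and IRE1, changed in jet-lagged mice of 12 weeks, with a range of 1.18, adjusted p = 0.0337, and was highest at ZT18; in steady mice of that age the range was 0.33, adjusted p = 0.682. Hsp90b1 changed in steady mice at both ages, by 0.47 and 0.61, and Dnajc3, a cochaperone and inhibitor of PERK, at 12 weeks by 0.46. Sdf2l1, which keeps ERdj3 and its clients soluble, changed in steady mice of 12 weeks (range 1.53, adjusted p = 0.0105) and in jet-lagged mice of 30 weeks (range 2.38, adjusted p = 0.00373). The Dnajb9 courses in the 2 schedules were not distinguished by the test of schedule by time (adjusted p = 0.406).

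**Figure D3:**
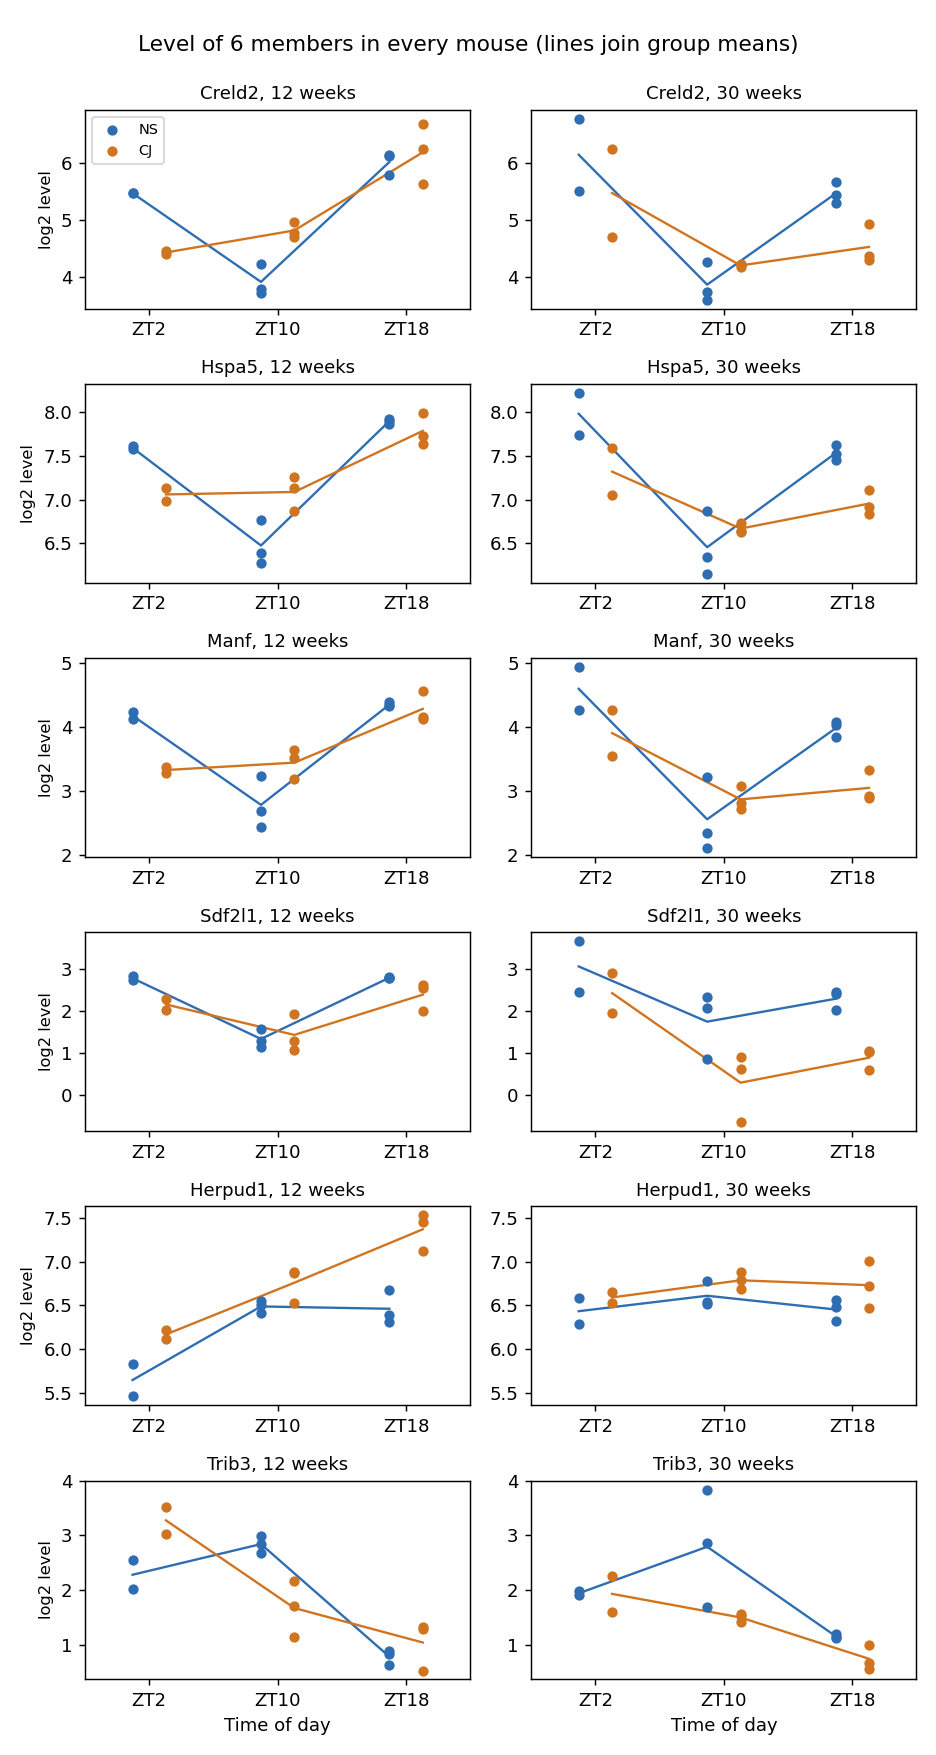
Log2 level (y axis) of 6 genes in every mouse (points) by time of day (x axis), at 12 weeks (left) and 30 weeks (right); blue is steady (NS), orange jet-lagged (CJ), and lines join group means. Creld2, Hspa5 and Manf dip at ZT10 in steady mice, Sdf2l1 is lower in jet-lagged mice of 30 weeks, and Herpud1 is higher in jet-lagged mice of 12 weeks.

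Over the mean of the 3 times, at 12 weeks 1 of the 35 genes was higher in jet-lagged mice (background 1.95%) and 1 lower (background 2.41%). At 30 weeks, 9 of the 35 were lower (background 4.07%) and 0 higher (background 1.93%). The median difference of the 35 was -0.03 at 12 weeks and -0.21 at 30 weeks, against 0.02 and -0.01 over all genes, and 29 of the 35 were negative at 30 weeks. The 9 were the chaperones Sdf2l1, Hsp90b1 and Dnajb11, the disulfide isomerases Pdia3, Pdia4 and Pdia6, the lectin chaperone Calr, and the degradation genes Sel1l and Edem1. Without the acinar-rich arrays 0 of the 9 calls were left, and each of the 9 differences kept its sign. Leaving out 1 mouse at a time gave 3 to 13 calls; the lowest count came without mouse 1 and the highest without mouse 2 of jet-lagged ZT2 at 30 weeks.

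Sdf2l1 differed most. At 30 weeks its level in steady mice was 2.46 and 3.65 at ZT2, 2.32, 2.05 and 0.85 at ZT10, and 2.01, 2.40 and 2.45 at ZT18. In jet-lagged mice it was 1.94 and 2.89 at ZT2, 0.90, -0.65 and 0.61 at ZT10, and 1.02, 0.60 and 1.03 at ZT18. The groups were separate at ZT18 and overlapped at ZT2 and ZT10. The difference over the 3 times was -1.14 ± 0.21, adjusted p = 0.0023, and was called in all 32 fits that left out 1 mouse. At single times it was -1.55 ± 0.36, adjusted p = 0.0468, at ZT10, and -1.47 ± 0.36, adjusted p = 0.0232, at ZT18. The ZT10 call was kept in 11 of 32 fits without 1 mouse, with the highest adjusted p (0.296) without mouse 1 of steady ZT10 (-1.26), and was lost in 5 of 9 alternatives, such as the authors' table; the ZT18 call was kept in 28 of 32. Of the 8 slides, 2 each held 1 steady and 1 jet-lagged mouse of the same time at 30 weeks. Within those pairs, whose mice are also in the comparison above, Sdf2l1 differed by -1.15 at ZT10 and -1.37 at ZT18. At ZT10 the acinar level was 2.80 in the steady and -1.74 in the jet-lagged mouse, and the muscle level -1.72 and 3.63. At ZT18 these were -1.47 and -2.61, and 0.42 and -1.09. Their part was not tested. Without the acinar-rich arrays the difference over the 3 times was -0.77 (adjusted p = 0.156). At 12 weeks it was -0.30 ± 0.21, adjusted p = 0.463.

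Hsp90b1 encodes GRP94, which folds a narrow set of secreted and membrane clients. It read 6.84 and 7.11 at ZT2, 6.55, 6.33 and 6.00 at ZT10, and 6.43, 6.57 and 6.54 at ZT18 in steady mice of 30 weeks. The jet-lagged mice read 6.32 and 6.55 at ZT2, 6.04, 6.02 and 6.02 at ZT10, and 6.36, 6.18 and 6.08 at ZT18. Jet-lagged values were wholly lower at ZT2 and ZT18 and overlapped at ZT10, and the difference was -0.36 ± 0.07, adjusted p = 0.00378. For Dnajb11 the steady mice of 30 weeks read 4.20 and 4.62 at ZT2, 3.59, 3.46 and 3.46 at ZT10, and 4.06, 4.17 and 4.16 at ZT18, and the jet-lagged mice 3.89 and 4.18 at ZT2, 3.47, 3.52 and 3.51 at ZT10, and 3.68, 3.45 and 3.63 at ZT18. The schedules overlapped at ZT10 and were separate at the other times, with a difference of -0.30 ± 0.07, adjusted p = 0.00785, over the 3 times and -0.56 ± 0.11, adjusted p = 0.00594, at ZT18. Hspa5 differed by -0.34 ± 0.10, adjusted p = 0.0541, Manf by -0.44 ± 0.15, adjusted p = 0.0912, and Creld2 by -0.41 ± 0.18, adjusted p = 0.217, none past the threshold.

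Protein disulfide isomerases and the oxidase Ero1b changed with time of day in steady mice. Of the 5 genes, 4 changed with time of day in steady mice of 12 weeks (background 17.5%) and 2 at 30 weeks (background 11.2%). In jet-lagged mice 0 changed at either age (backgrounds 5.66% and 3.71%). Pdia4 changed by 0.94, adjusted p = 0.000369, at 12 weeks and 0.85, adjusted p = 0.00355, at 30 weeks. Ero1b, the oxidase that recharges the isomerases, changed by 0.66, adjusted p = 0.0043, and 1.01, adjusted p = 0.000381. P4hb and Pdia3 changed by 0.31 and 0.51 at 12 weeks. The P4hb call was kept in 28 of 32 fits that left out 1 mouse, but in only 3 of 9 alternatives. In the authors' table the range of P4hb was 0.043 (adjusted p = 0.913), with a turned course. Pdia6 had a range of 0.59, adjusted p = 0.0616, with the probe used. Its second, dimmer probe gave 0.66 (adjusted p = 0.00401 among all probes), and Pdia6 passed with the mean of probes (0.62, adjusted p = 0.0159), normexp background, quantile normalization and the authors' table.

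The fitted differences of all 5 were negative (jet-lagged minus steady) over the mean of the 3 times at both ages, and 3 passed the test at 30 weeks. Pdia3 (ERp57), which works with calnexin and calreticulin on glycoproteins, read 3.87 and 4.11 at ZT2, 3.66, 3.40 and 3.48 at ZT10, and 3.74, 3.73 and 3.76 at ZT18 in steady mice of 30 weeks. Under jet lag it read 3.71 and 3.64 at ZT2, 3.27, 3.26 and 3.27 at ZT10, and 3.43, 3.15 and 3.33 at ZT18. The schedules overlapped at no time, and jet-lagged values were lower at all 3, with a difference of -0.32 ± 0.06, adjusted p = 0.00244. At ZT18 alone it was -0.48 ± 0.10, adjusted p = 0.0109. The call over the 3 times was kept in all 32 fits that left out 1 mouse, and that difference was -0.28 (adjusted p = 0.0848) without the acinar-rich arrays.

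Pdia4, which shares clients with BiP, read 2.86 and 3.38 at ZT2, 2.38, 2.33 and 2.09 at ZT10, and 2.71, 2.94 and 2.98 at ZT18 in steady mice of 30 weeks. Under jet lag it read 2.67 and 2.77 at ZT2, 2.21, 2.31 and 2.11 at ZT10, and 2.26, 2.01 and 2.41 at ZT18. Groups overlapped at ZT10 and were separate at ZT2 and ZT18. The difference was -0.36 ± 0.09, adjusted p = 0.018, over the 3 times and -0.65 ± 0.15, adjusted p = 0.0166, at ZT18. Pdia6, which also dampens IRE1 and PERK, read 7.31 and 7.65 at ZT2, 7.33, 7.10 and 6.35 at ZT10, and 6.82, 7.01 and 6.97 at ZT18 in steady and 6.88 and 7.08 at ZT2, 6.65, 6.52 and 6.61 at ZT10, and 6.86, 6.72 and 6.57 at ZT18 in jet-lagged mice. The schedules were separate at ZT2 and overlapped at ZT10 and ZT18, and the difference of -0.33 ± 0.10, adjusted p = 0.0423, was kept in 18 of 32 fits that left out 1 mouse.

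Ero1b was the gene of the 35 that was lower in jet-lagged mice at 12 weeks. Steady mice read 3.08 and 3.23 at ZT2, 2.69, 2.45 and 2.44 at ZT10, and 2.77, 3.17 and 3.06 at ZT18. Jet-lagged mice read 2.61 and 2.29 at ZT2, 2.50, 2.52 and 2.35 at ZT10, and 2.76, 2.34 and 2.98 at ZT18. Jet-lagged values were wholly lower at ZT2 and overlapped at ZT10 and ZT18. The difference was -0.36 ± 0.08, adjusted p = 0.0128, and at 30 weeks it was -0.17 ± 0.08, adjusted p = 0.257.

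The lectin chaperones calreticulin (Calr) and calnexin (Canx) hold glycoproteins while their sugars are trimmed. Both changed over the day in steady mice of 12 weeks, Calr by 0.74, adjusted p = 0.000865, and Canx by 0.43, adjusted p = 0.00303, and neither in the other 3 sets of mice. At 30 weeks Calr read 5.66 and 5.97 at ZT2, 5.67, 5.36 and 4.85 at ZT10, and 5.40, 5.60 and 5.57 at ZT18 in steady mice. Under jet lag it read 5.53 and 5.50 at ZT2, 5.20, 5.17 and 4.99 at ZT10, and 5.15, 5.11 and 5.09 at ZT18. The schedules were separate at ZT2 and ZT18 and overlapped at ZT10. Calr differed by -0.28 ± 0.08, adjusted p = 0.036, which 22 of 32 fits without 1 mouse kept, and Canx by -0.12 ± 0.05, adjusted p = 0.173.

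Transcripts of the sensors and their transcription factors were called for time of day about as often as all genes in steady mice. Atf6, Ern1 and Eif2ak3 passed no time-of-day test in any of the 4 sets of mice, with ranges of 0.04 to 0.76, and no comparison of schedules. Of the 6 genes in this group, 1 changed in steady mice of 12 weeks (background 17.5%), 1 in jet-lagged mice of 12 weeks (background 5.66%), 1 in steady mice of 30 weeks (background 11.2%) and 0 in jet-lagged mice of 30 weeks (background 3.71%). Atf4 was the one in steady mice, with ranges of 0.60, adjusted p = 0.0116, and 0.79, adjusted p = 0.0067; a second probe of Atf4 gave 0.67 and 0.80. Arrays of this kind measure the sum of Xbp1 transcripts and do not separate the spliced form.

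Ddit3, which encodes the pro-apoptotic factor CHOP, changed in jet-lagged mice of 12 weeks (range 1.60, adjusted p = 0.000291). It read -0.31 and -0.94 at ZT2, -0.54, -0.24 and -0.22 at ZT10, and 0.82, 0.83 and 1.02 at ZT18 in those mice. In steady mice of that age it read -0.90 and -0.11 at ZT2, -0.62, -0.49 and -0.38 at ZT10, and 0.01, 0.12 and 0.26 at ZT18. The jet-lagged ZT18 values lay above all steady values, and the difference at ZT18 was 0.81 ± 0.22, adjusted p = 0.0447. This ZT18 call was kept in 12 of 32 fits without 1 mouse and was lost without the acinar-rich arrays, while the change over the day in jet-lagged mice was kept. Xbp1 ran the other way at ZT18, where steady mice of 12 weeks read 6.86, 6.97 and 7.12 and jet-lagged mice 6.46, 6.36 and 6.34. The groups did not overlap, and the difference was -0.61 ± 0.13, adjusted p = 0.0114. This Xbp1 call was lost with acinar and muscle levels as covariates. It was also lost without the acinar-rich arrays, which leaves 1 steady mouse at that time. At ZT18 and 12 weeks, 2 of the 35 genes were higher (background 1%) and 1 lower (background 1.87%) in jet-lagged mice. At ZT2 and at ZT10 of that age 0 of the 35 were called (backgrounds 0.247% and 1.81%). In each, 10 had an unadjusted p under 0.05, a threshold for which the share of all genes was not counted.

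Of the 7 degradation factors, 4 changed with time of day in steady mice of 12 weeks (background 17.5%) and 3 at 30 weeks (background 11.2%). Edem1, Syvn1 and Sel1l changed at both ages and Herpud1 at 12 weeks. In jet-lagged mice Herpud1 and Sel1l changed at 12 weeks (background 5.66%), and Syvn1 at 30 weeks (background 3.71%). Sel1l changed by 0.57, highest at ZT18 and lowest at ZT2, a call that 29 of 32 fits without 1 mouse kept. Syvn1 changed by 1.05, highest at ZT2 and lowest at ZT10, and 13 of 32 such fits kept its call. The probes used for Derl1, Derl2 and Derl3 passed no test. A dimmer probe of Derl2, A_52_P84275, was lower in jet-lagged mice of 30 weeks (-0.35, adjusted p = 0.00681 among all probes) and changed over the day in steady mice of that age (0.57, adjusted p = 0.029). A dimmer probe of Derl1, A_51_P217236, was also lower in jet-lagged mice of 30 weeks (-0.21, adjusted p = 0.0366). Syvn1 (HRD1) is the ubiquitin ligase of the main degradation complex, Sel1l its partner, and Edem1 a lectin that passes glycoproteins to it. In steady mice Syvn1 changed by 1.23 and 1.64, Sel1l by 0.80 and 1.00, and Edem1 by 0.81 and 0.82, at 12 and 30 weeks. Each was lowest at ZT10.

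Edem1 was the gene of the 35 whose daily course differed between schedules at 30 weeks. In steady mice it read 2.95 and 2.97 at ZT2, 2.02, 1.92 and 2.27 at ZT10, and 2.80, 2.72 and 2.85 at ZT18. In jet-lagged mice it read 2.24 and 2.52 at ZT2, 2.16, 2.28 and 2.22 at ZT10, and 2.46, 2.22 and 2.35 at ZT18. The schedules were separate at ZT2 and ZT18, with jet-lagged mice lower, and overlapped at ZT10. The difference between schedules moved by 0.66, adjusted p = 0.0451, over the 3 times, and this was kept in 8 of 32 fits that left out 1 mouse. It was -0.54 ± 0.13, adjusted p = 0.0376, at ZT2, and -0.44 ± 0.10, adjusted p = 0.0167, at ZT18. Over the 3 times it was -0.29 ± 0.06, adjusted p = 0.006. The ZT2 call, from 2 mice against 2, was kept in 26 of 32 fits that left out 1 mouse and in 3 of 9 alternatives. The ZT18 call was kept in 27 of 32 fits and 7 of 9 alternatives. Sel1l read 2.29 and 2.77 at ZT2, 1.36, 1.47 and 1.62 at ZT10, and 2.10, 1.88 and 2.09 at ZT18 in steady and 1.81 and 2.16 at ZT2, 1.48, 1.48 and 1.74 at ZT10, and 1.73, 1.46 and 1.64 at ZT18 in jet-lagged mice of 30 weeks. It was separate between schedules at ZT2 and ZT18, and differed by -0.29 ± 0.07, adjusted p = 0.0147.

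Herpud1 encodes an ER membrane protein that gathers the degradation complex, and it was the gene of the 35 that was higher in jet-lagged mice of 12 weeks. Steady mice read 5.46 and 5.83 at ZT2, 6.51, 6.55 and 6.41 at ZT10, and 6.39, 6.31 and 6.68 at ZT18. Jet-lagged mice read 6.22 and 6.11 at ZT2, 6.52, 6.87 and 6.88 at ZT10, and 7.46, 7.12 and 7.53 at ZT18. The jet-lagged values were wholly higher at ZT2 and ZT18 and overlapped at ZT10. The difference over the 3 times was 0.57 ± 0.08, adjusted p = 0.000581, and at ZT18 it was 0.90 ± 0.14, adjusted p = 0.000701; both were kept in all 32 fits that left out 1 mouse. Without the acinar-rich arrays it was 0.45 (adjusted p = 0.0658) over the 3 times. Herpud1 also changed with time of day at 12 weeks in both schedules, by 0.87, adjusted p = 0.000626, in steady and 1.24, adjusted p = 0.000125, in jet-lagged mice, lowest at ZT2 in both. At 30 weeks its ranges were 0.23 and 0.13 and the difference between schedules was 0.21 ± 0.08, adjusted p = 0.143.

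Derl3, a derlin of the degradation channel, had the largest SD of any single group among the 35 genes (1.90). In jet-lagged mice of 30 weeks, where its range was among the 3 largest, it read 0.56 and 1.14 at ZT2, 0.73, -0.35 and -0.93 at ZT10, and -0.34, -1.35 and -1.81 at ZT18. The 3 mice of ZT10 and the 3 of ZT18 each spread over more than 1 log2 unit and overlapped, and the range of 2.24, adjusted p = 0.23, was not called.

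The translocon subunits Sec61a1, which forms the channel, and Sec61b changed by 0.45 and 0.44 in steady mice of 12 weeks and were not called in the other 3 sets of mice. Sec61b lacked a value in 1 jet-lagged mouse of ZT2 and 12 weeks, which its fit left out. Neither passed a comparison of schedules.

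Of the 4 targets of ATF4, Trib3 alone changed over the day in steady mice, at both ages (backgrounds 17.5% and 11.2%). In jet-lagged mice Trib3 and Chac1 changed at 12 weeks (background 5.66%) and 0 of the 4 at 30 weeks (background 3.71%). Trib3 encodes a pseudokinase that feeds back on ATF4 and on insulin signalling, and was highest at ZT10 and lowest at ZT18 in steady mice. At 12 weeks it read 2.02 and 2.54 at ZT2, 2.68, 2.85 and 2.99 at ZT10, and 0.82, 0.64 and 0.88 at ZT18 in them. In jet-lagged mice it read 3.02 and 3.52 at ZT2, 2.16, 1.15 and 1.71 at ZT10, and 1.32, 0.52 and 1.28 at ZT18. Jet-lagged mice were wholly higher at ZT2 and wholly lower at ZT10, and overlapped at ZT18. Trib3 changed in both, by 1.93, adjusted p = 0.000524, and 2.03, adjusted p = 0.00274. The difference between schedules moved by 2.13, adjusted p = 0.047, over the 3 times, highest at ZT2 and lowest at ZT10. That call was kept in 4 of 32 fits that left out 1 mouse, and it was lost without the acinar-rich arrays (1.69).

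At 30 weeks Trib3 read 1.98 and 1.90 at ZT2, 3.84, 2.86 and 1.68 at ZT10, and 1.15, 1.19 and 1.13 at ZT18 in steady mice (range 1.78, adjusted p = 0.00194). In jet-lagged mice it read 1.60 and 2.26 at ZT2, 1.42, 1.56 and 1.52 at ZT10, and 0.67, 0.56 and 1.00 at ZT18 (range 1.33, adjusted p = 0.0687). At ZT10 the jet-lagged mice lay wholly below the steady mice, whose own spread was wide, and the difference was -1.34 ± 0.31, adjusted p = 0.0466. That call was kept in 6 of 32 fits without 1 mouse, and was lost without mouse 1 of steady ZT10 (-0.88). At ZT10 and 30 weeks, 2 of the 35 genes were called, Trib3 and Sdf2l1 (background 0.679%). At ZT2 it was 1, Edem1 (background 1.37%). At ZT18, 5 were lower, Sdf2l1, Pdia4, Dnajb11, Pdia3 and Edem1 (background 1.82%), and 0 higher (background 1.7%). Without mouse 2 of steady ZT18 the 5 became 1.

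Chac1, a glutathione-degrading enzyme, had the largest range in jet-lagged mice of 12 weeks. It read 0.84 and 2.49 at ZT2, 0.32, 0.76 and 0.44 at ZT10, and -0.87, -0.63 and -1.28 at ZT18. Every ZT18 value lay below every value of both other times, and the range was 2.72, adjusted p = 0.0439, a call that 12 of 32 fits without 1 mouse kept. In steady mice of 12 weeks Chac1 had a range of 1.28, adjusted p = 0.28. Asns, asparagine synthetase, was among the 3 largest ranges in jet-lagged mice of 30 weeks, where it read 0.50 and 2.03 at ZT2, -0.80, 0.18 and 0.47 at ZT10, and 0.14, 0.10 and 0.14 at ZT18. A single ZT2 mouse stood above the rest, and the range of 1.62, adjusted p = 0.203, was not called. Ppp1r15a (GADD34), which undoes the translation block, passed no test.

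**Figure D4:**
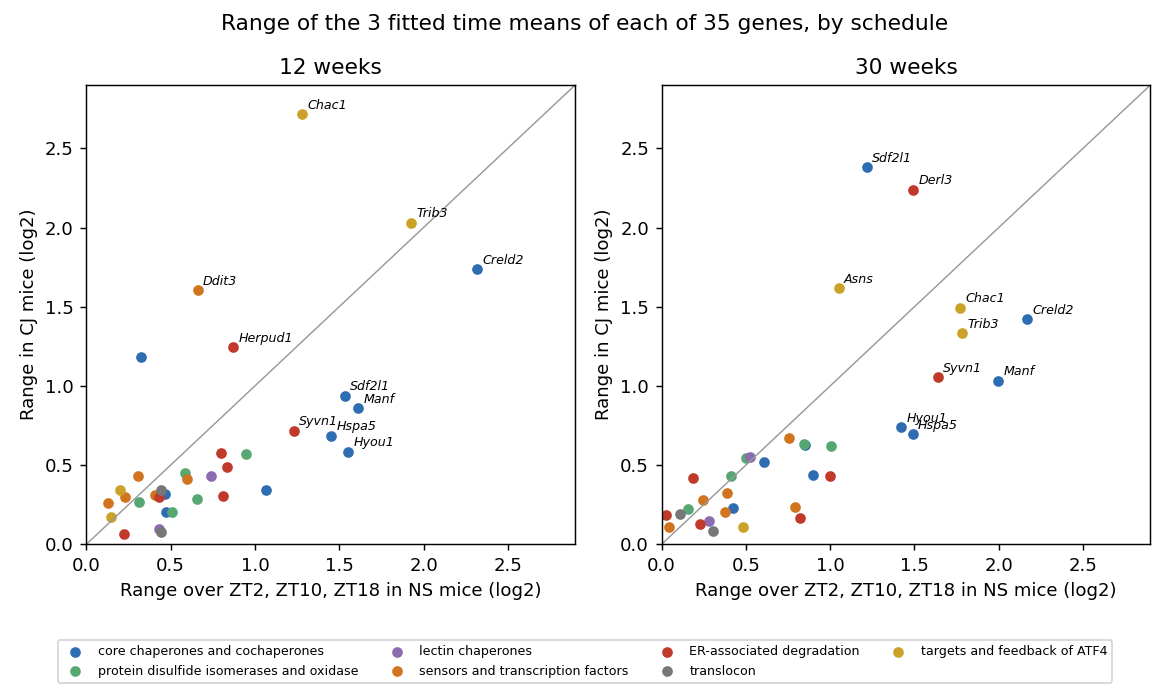
Range of the 3 fitted time means (log2) in steady mice (x axis) and jet-lagged mice (y axis) for each of the 35 genes, coloured by role, at 12 weeks (left) and 30 weeks (right); genes with a range above 1.2 are named and the line marks equal ranges. Points lie below the line for 25 genes at 12 weeks and 23 at 30 weeks, while Chac1, Ddit3 and Herpud1 at 12 weeks and Sdf2l1 at 30 weeks lie above it.

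Counting mice rather than tests, the jet-lagged mice of 30 weeks at ZT18 lay wholly below the steady mice for 19 of the 35 genes and wholly above for 2; over all genes these shares were 10.1% and 13.3%, and 1.82% of all genes were called lower. At ZT2 of that age, with 2 mice against 2, the counts were 18 and 1 (29% and 23% of all genes). At ZT10 they were 3 and 1 (8.81% and 5.57%). At 12 weeks the counts of genes wholly lower and wholly higher were 13 and 5 at ZT2 (23.1% and 20.6%), 2 and 6 at ZT10 (9.34% and 9.22%), and 10 and 2 at ZT18 (10.7% and 9.04%). The genes wholly higher at ZT10 were Hspa5, Dnajb11, Creld2, Canx, Syvn1 and Sel1l, of which all but Canx were wholly lower at ZT2. These comparisons share mice with the comparison of means.

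**Figure D5:**
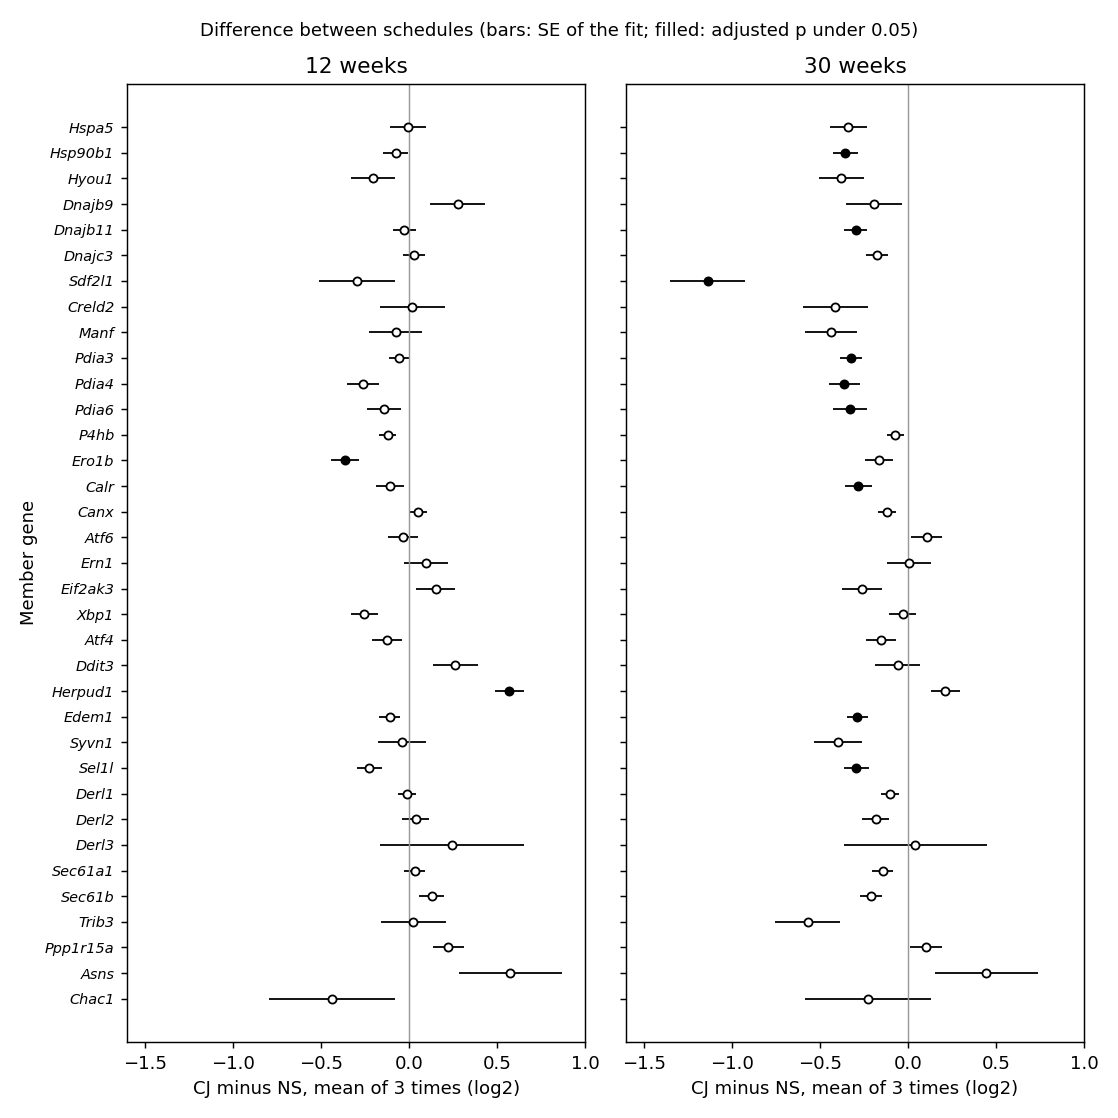
Difference between schedules over the mean of the 3 times (jet-lagged minus steady, log2, x axis) for each of the 35 genes (rows), at 12 weeks (left) and 30 weeks (right); bars are the SE of the fit and filled points have adjusted p under 0.05. At 12 weeks Herpud1 (0.57) and Ero1b (-0.36) are filled, and at 30 weeks 9 genes, all below 0, from Sdf2l1 (-1.14) to Calr (-0.28).

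Age alone was compared within each schedule. In steady mice 0 of the 35 genes differed between 30 and 12 weeks (background 0.861%); limma gave 2 at an unadjusted p under 0.05. In jet-lagged mice 8 were lower at 30 weeks (background 2.73%) and 0 higher (background 2.26%). These were Pdia3 (-0.36 ± 0.06, adjusted p = 0.00119), Hsp90b1 (-0.33 ± 0.07, adjusted p = 0.00828), Sdf2l1 (-0.77 ± 0.21), Eif2ak3 (-0.41 ± 0.11), Calr (-0.31 ± 0.08), Sec61b (-0.28 ± 0.07), Dnajb11 (-0.24 ± 0.07) and Dnajc3 (-0.24 ± 0.06). The comparison shares the jet-lagged mice of 30 weeks with the comparison of schedules, so the genes found in both are not found independently. Without the acinar-rich arrays the count was 0, and leaving out 1 mouse gave from 2 (without mouse 2 of jet-lagged ZT2 at 12 weeks) to 11. Asked directly, whether the difference between schedules changed with age, the fit called 0 of the 35 genes and 2 of all genes (0.00865%). The largest such change was that of Sdf2l1, -0.84 ± 0.30, adjusted p = 0.253. Of the 35, 12 had an unadjusted p under 0.05. How many of all genes pass that unadjusted threshold was not counted. The 12, and the 2 in steady mice, therefore have no background.

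Dnajb11 has another probe that went the opposite way. The probe used, A_51_P188073, is brighter, with a mean level of 3.89 over all mice, and the other, A_55_P2085955, has one of -0.67; the array files give them different RefSeq transcripts. In steady mice of 12 weeks the other probe read -1.90 ± 0.34 (SD, n = 2) at ZT2, 1.00 ± 0.27 (SD, n = 3) at ZT10 and -3.04 ± 0.66 (SD, n = 3) at ZT18. At 30 weeks it read -1.82 ± 0.50 (SD, n = 2), 1.24 ± 0.52 (SD, n = 3) and -2.79 ± 0.47 (SD, n = 3). It was thus highest where the brighter probe was lowest, with ranges of 4.11 and 4.07 (adjusted p = 3.12e-06 and 5.81e-06 among all probes), against 1.06 and 0.85. In jet-lagged mice its range was 0.39 and 1.47, neither called. Over the 3 times it was higher in jet-lagged mice by 0.93 at 12 weeks and 1.23 at 30 weeks (adjusted p = 0.0369 and 0.00522). Which probe reports the gene was not tested, and every Dnajb11 value elsewhere is that of the brighter probe. For the other 6 genes with several probes, Atf4, Derl1, Derl2, Dnajb9, Pdia6 and Sec61b, every probe gave the same sign as the brightest for the difference between schedules at 30 weeks. At 12 weeks this held for all but Derl2, whose brightest probe gave 0.038 and the 2 others -0.16 and -0.13.

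Other genes of the pathway were counted from lists. Of 28 measured genes of translocation, signal peptidase and glycosylation, 14 changed over the day in steady mice of 12 weeks (background 17.5%). At 30 weeks 9 changed (background 11.2%), and all those called at either age were lowest at ZT10. In jet-lagged mice 0 changed at either age (backgrounds 5.66% and 3.71%). Ostc, an oligosaccharyltransferase subunit, had the largest range of the called genes in steady mice (0.83 and 0.96). Rpn1, another subunit, changed by 0.74 in steady mice of 12 weeks. At 30 weeks 6 of the 28 were lower in jet-lagged mice over the 3 times (background 4.07%) and 0 higher (background 1.93%). Spcs3 of the signal peptidase (-0.27) and Ddost (-0.25) were among the 6. Of 21 other folding enzymes, 5 changed in steady mice of 12 weeks (background 17.5%) and 2 at 30 weeks (background 11.2%). In jet-lagged mice 0 changed (backgrounds 5.66% and 3.71%). The count in steady mice of 30 weeks was not above the share of all genes. Fkbp14, a prolyl isomerase, had the largest range of the called genes in steady mice (0.81 and 0.65). Of 20 other degradation genes, 5 and 4 changed in steady mice (backgrounds 17.5% and 11.2%). Ube2g2 (0.90 and 0.68) and Selenos (0.66 and 0.75) were among them. In jet-lagged mice 0 and 1 of the 20 changed (backgrounds 5.66% and 3.71%).

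Of 17 other regulators, 4 changed in steady mice at each age (backgrounds 17.5% and 11.2%). Under jet lag 2 and 1 changed (backgrounds 5.66% and 3.71%). Atf6b had ranges of 0.87 and 0.94 in steady mice. Of 22 other genes of the integrated stress response, the counts were 7 and 6 under the steady schedule (backgrounds 17.5% and 11.2%). They were 3 and 3 under jet lag (backgrounds 5.66% and 3.71%). Gdf15, a stress hormone, had the largest range of the called genes in steady mice (2.13 and 2.55), highest at ZT2. Atf3 was higher in jet-lagged mice of 30 weeks at ZT10 (1.13 ± 0.25, adjusted p = 0.036) and ZT18 (0.99 ± 0.25, adjusted p = 0.0286). At ZT2 of that age its mean was lower, -2.85 in jet-lagged and -1.51 in steady mice, with 2 mice each. Its difference between schedules moved by 2.37 over the 3 times (limma's F test, adjusted p = 0.00518), highest at ZT10 and lowest at ZT2. Bbc3, which encodes the BH3-only protein PUMA, was lower in jet-lagged mice of 30 weeks over the 3 times (-0.61 ± 0.12, adjusted p = 0.00365). The lists were not chosen blind to these data, and their counts stand beside the backgrounds given above.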

How the data were processed

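Liver RNA of 32 mice was hybridised, 1 mouse per 1-colour Agilent array, on 8 slides of 4 arrays. The deposited intensity values were background-corrected by the scanner software Feature Extraction (11.0.1.1 per the file headers, 9.1 per the submitters' processing notes). The deposited log2 values of the authors' table, normalized between arrays and with a batch effect removed per the series' design text, served as an alternative; which batch and method is not given in the sources used here. Its columns have medians of 9.82 to 9.90. Per-sample columns that could not be mapped to a mouse numbered 0.

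Here log2 of the intensity was taken minus each array's 75th percentile. Spots of a probe were averaged, control spots were left out, and a probe had to pass the scanner's well-above-background flag in every mouse of some group, which left 30487 probes. The brightest probe stood for each of 23109 genes. One fit of 12 group means with slide as a random block (correlation 0.244) was made with limma 3.58.1 and statmod 1.5.0 in R 4.3.3, and adjusted p-values (Benjamini-Hochberg) run over all genes. It was tested on simulated data. Replicates are separate mice, and their number, 2 or 3 a group, limits the precision.

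Every mouse's values are given for the 3 genes of largest range in each time-of-day comparison and for genes called between schedules. The 35 genes, the marker lists and the pathway lists were chosen with earlier results of these data known. Alternatives were normexp background (offset 50, on the median signal, since the files used hold no mean signal column), quantile normalization, no filter, slide as a fixed block, mouse number as a block, the deposited table of the authors, the mean of a gene's probes, acinar and muscle levels as covariates, the removal of acinar-rich arrays and of each mouse in turn. The comparison of schedules by age, the fit of every probe and the share of all called genes lowest at each time were added after seeing the data.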

Additional observations from a re-analysis of the deposited data

Results flagged for a closer look

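The daily course differed between schedules, by a test of the difference itself, for 3 of the 35 genes. For Dnajb11 at 12 weeks the difference between jet-lagged and steady mice moved by 0.72 log2 over the 3 times (limma, adjusted p = 0.0318). For Trib3 at 12 weeks it moved by 2.13 (adjusted p = 0.047), and for Edem1 at 30 weeks by 0.66 (adjusted p = 0.0451). Of these calls, 0 were kept without the acinar-rich arrays or with acinar and muscle levels as covariates.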

How the results depend on the processing

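Of 79 calls of single genes, 74 were kept under normexp background, 71 under quantile normalization, 59 without the filter, 53 with slide as a fixed block, 68 in the authors' table, 63 with acinar and muscle covariates and 18 without the acinar-rich arrays, where the 4 groups left with 1 mouse are assumed to vary like the others. The direction of 1 of them turned under these settings, the daily course of P4hb in steady mice of 12 weeks in the authors' table (0.043). A course is counted as turned where its peak became its trough or the reverse. With the mean of probes 70 were kept and 7 turned: Dnajb11 over the day in steady mice of 12 (1.52) and 30 weeks (1.73), in schedule by time at 12 weeks (1.64), between schedules at 30 weeks over the 3 times (0.47) and at ZT18 (0.73), and with age in jet-lagged mice (0.12), and Sec61b with age in jet-lagged mice (0.094). The probes of Dnajb11 run opposite ways, and the brighter probe of Sec61b lacked a value in 1 mouse, whose mean is that of the dimmer probe alone.

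Counts of called genes moved by over 1.5 times as follows. Without acinar-rich arrays the time-of-day counts were 9 and 2 (steady and jet-lagged, 12 weeks) and 7 and 0 (30 weeks), and 0 in every other comparison. Without the filter, jet-lagged time of day at 12 weeks gave 4, age in jet-lagged mice 3, and both tests of schedule by time and the schedules at ZT2 and ZT10 of 30 weeks 0. With slide fixed, jet-lagged time of day gave 3 and 5, schedules at ZT18 of 30 weeks 3, age in jet-lagged mice 4, and the same 4 comparisons 0. In the authors' table, steady time of day at 30 weeks gave 24, jet-lagged 6, schedule by time at 30 weeks 6, schedules over the 3 times at 12 weeks 4, at ZT10 of 12 weeks 2, at ZT2, ZT10 and ZT18 of 30 weeks 3, 1 and 12, and age in jet-lagged mice 5. That table holds 12693 genes, and 4114 of them were called for steady time of day at 30 weeks, against 2587 of 23109 in the main fit. For jet-lagged time of day at 30 weeks it called 1637, against 857. Normexp gave 10 for jet-lagged time of day at 30 weeks, 0 for schedule by time at 30 weeks, 4 for schedules over the 3 times at 12 weeks, 2 at ZT10 of 12 weeks and 0 at ZT2 of 30 weeks. Quantile normalization gave 8 for jet-lagged time of day at 30 weeks, 2 at ZT10 of 12 weeks and 0 at ZT2 of 30 weeks. The mean of probes gave 1 and 2 for schedule by time and 2 at ZT2 of 30 weeks. Covariates gave 0 and 0 for schedule by time, 1 at ZT18 of 12 weeks, and 0 and 1 at ZT2 and ZT10 of 30 weeks. Beyond what each setting changes, the cause was not tested.

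Leaving out 1 mouse gave 16 to 25 (steady) and 3 to 9 (jet-lagged) genes for time of day at 12 weeks, and 12 to 17 and 0 to 8 at 30 weeks. Schedule by time gave 0 to 5 and 0 to 4, schedules over the 3 times 1 to 3 and 3 to 13, at ZT2, ZT10 and ZT18 of 12 weeks 0 to 2, 0 to 3 and 1 to 3, and of 30 weeks 0 to 4, 0 to 3 and 1 to 9. Age gave 0 to 0 in steady and 2 to 11 in jet-lagged mice.

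The mouse numbers do not pair the mice: over 160 pairs of arrays with the same number, deviations correlated from -0.427 to 0.362, and 7 of 32 arrays correlated best with their own number. With the number as a replicate block 75 of 79 calls were kept, and the counts that moved were schedule by time at 30 weeks (0), ZT10 of 12 weeks (2) and ZT10 of 30 weeks (1).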
